A study of Mus musculus with 8 samples.

Results

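The genes described are 32 genes of glycolysis and of the transcriptional response to low oxygen, taken by symbol from the 54232 features of the deposited tables. They cover glucose entry and the preparatory steps (Slc2a3, Hk1, Hk2, Gpi1, Pfkl, Pfkm, Pfkp, Pfkfb3, Aldoa, Aldoc, Tpi1), the pay-off steps (Gapdh, Pgk1, Pgam1, Eno1, Eno2, Pkm), lactate and pyruvate handling (Ldha, Ldhb, Slc16a1, Slc16a3, Slc16a7, Pdk1), and oxygen sensing and hypoxia targets (Vhl, Egln1, Egln3, Bnip3, Bnip3l, Ddit4, Adm, P4ha1, Ankrd37). All 32 were present, and Aldoa matched 2 Ensembl identifiers. Values for Aldoa are those of ENSMUSG00000030695, and ENSMUSG00000114515, with 262 UMIs in all, adds a 33rd row to counts made over rows. The nuclei came from perilesional forebrain of male Swiss Webster mice, 10 weeks old, in 4 groups of 2 libraries each: control, BCAS, TBI (traumatic brain injury), and both surgeries (BCAS+TBI). The labels leave BCAS unexpanded, the study's title ties it to cerebral hypoperfusion, and they give no interval between surgery and collection. They call the 2 libraries of a group biological replicates, without saying whether a library is 1 animal or a pool or what surgery the controls had. The question the design poses is what each surgery changes and whether hypoperfusion alters the outcome of the injury.

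Glycolysis splits glucose into pyruvate. The preparatory steps spend ATP and the pay-off steps return it with NADH, and lactate dehydrogenase and the monocarboxylate transporters then convert and move pyruvate and lactate between cells. Prolyl hydroxylases of the Egln family use oxygen to mark the hypoxia-inducible factors for degradation through Vhl, and when oxygen falls the factors accumulate and raise many glycolytic genes together with Bnip3, Adm, Ankrd37 and Egln3. In brain, astrocytes are classically credited with glycolysis and lactate release, and neurons with lactate uptake and with glucose transport through Slc2a3.

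The libraries held 28118725 to 56135192 UMIs (unique molecular identifiers, each standing for 1 captured RNA molecule), and 48468 of 53390 barcodes passed the quality limits. By total UMIs they fell into 2 sets with 1 library of each group. Set 1 (control 1, BCAS 1, TBI 1 and BCAS+TBI 2) had up to 33363564 UMIs and set 2 (control 2, BCAS 2, TBI 2 and BCAS+TBI 1) at least 42651388. Ribosomal protein genes took 0.448% to 0.661% of UMIs in set 1 and 0.173% to 0.220% in set 2. Mitochondrial genes took 0.807% to 1.38% and 0.400% to 0.593%, and 5 nuclear noncoding RNAs 7.34% to 8.98% and 3.97% to 4.60%. Replicate 1 and replicate 2 of each group therefore differed in depth and RNA composition, and what set them apart is not given in the sources used here. Any 2 libraries shared 5 to 20 barcodes.

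The 32 genes together took 0.130% of UMIs in control 1 and 0.119% in control 2, 0.135% and 0.115% in BCAS, 0.134% and 0.117% in TBI, and 0.118% and 0.144% in BCAS+TBI. The 4 libraries of set 1 were all above the 4 of set 2, whereas the groups overlapped. In sums over all nuclei, fewer cells of a type and less RNA per cell cannot be told apart.

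**Figure D1:**
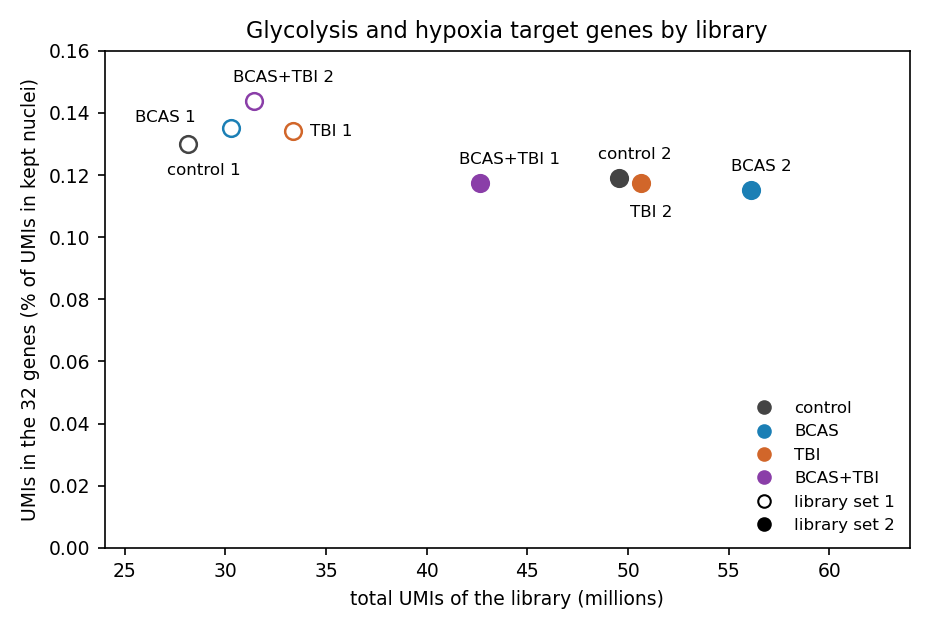
Share of UMIs in the 32 genes (percent of UMIs in kept nuclei, vertical axis from 0) against the total UMIs of each library. Open points are set 1 (0.130% to 0.144%), filled points set 2 (0.115% to 0.119%), and colours are the surgery groups.

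In all nuclei summed, no surgery difference of the 32 genes passed the test, in a design where no gene at all passed it. edgeR's quasi-likelihood test called 0 of them in 5 contrasts: TBI averaged over BCAS, BCAS averaged over TBI, their interaction, BCAS+TBI against TBI, and BCAS+TBI against control. Over all 24312 genes tested, 0% were called in each contrast. An unadjusted p under 0.05 was reached by 0 members and by 55 to 73 of all genes per contrast. DESeq2's Wald test also called 0 members. With the library set as a block, 0 members and 0% of genes were again called. Only 1 member, P4ha1, then had an unadjusted edgeR p under 0.05, where 453 to 774 of all genes did per contrast. The contrasts that share a group of libraries are not independent of each other. No member's 4 libraries with a surgery lay wholly above or below the 4 without it, for TBI or for BCAS, where 0.638% and 0.535% of all genes tested did so.

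The size of these differences was small for most members. Without the block, the median member differed by 0.05 on the log2 scale for TBI averaged over BCAS, against -0.01 for all genes tested. For BCAS averaged over TBI the medians were 0.03 and 0.01, for BCAS+TBI against TBI 0.08 and 0.02, and for BCAS+TBI against control 0.08 and 0.00. The block left the members' medians between 0.03 and 0.08 and lowered the median standard error of a member for TBI from 0.19 to 0.08. These standard errors set the size of difference that 2 libraries per group could resolve.

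Among the preparatory and pay-off genes, Hk2, the inducible hexokinase, had a wide interval, at 0.35 ± 0.33 (log2, SE) for BCAS averaged over TBI with the block. Pkm, which encodes the last, ATP-forming enzyme of the pathway, had the smallest p of a member for that contrast with the block. It read 55.1 and 53.1 counts per 1000000 UMIs (CPM) in control 1 and 2, 61.9 and 57.3 in BCAS, 59.6 and 51.2 in TBI, and 54.3 and 59.4 in BCAS+TBI. Its BCAS difference was 0.09 ± 0.11 without the block and 0.09 ± 0.05 with it (log2, SE; edgeR unadjusted p = 0.0945 with the block, adjusted p = 1.00), and the libraries with and without BCAS overlapped.

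Ldha, the lactate dehydrogenase subunit favoured when lactate is made, read 18.2 and 12.4 CPM in control, 22.5 and 12.8 in BCAS, 21.8 and 15.7 in TBI, and 14.3 and 21.2 in BCAS+TBI. Within each group the replicates differed by more than the group averages did. Its TBI difference was 0.16 ± 0.20 without the block and 0.17 ± 0.08 with it (edgeR adjusted p = 0.999, unadjusted p = 0.0738). Slc16a3, the monocarboxylate transporter of lactate-exporting cells, held 363 UMIs in all 8 libraries. It read 1.88 and 0.765 CPM in control, 1.19 and 0.891 in BCAS, 1.18 and 0.940 in TBI, and 1.28 and 2.01 in BCAS+TBI. BCAS+TBI exceeded TBI by 0.63 ± 0.46 (edgeR adjusted p = 1.00), and control 1, at 1.88, was above 1 of the BCAS+TBI libraries.

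P4ha1, a collagen prolyl hydroxylase subunit induced by low oxygen, read 98.7 and 92.3 CPM in control, 94.5 and 85.5 in BCAS, 87.0 and 82.6 in TBI, and 90.9 and 103 in BCAS+TBI. Both BCAS+TBI libraries were above both TBI libraries but not above both controls. BCAS+TBI exceeded TBI by 0.19 ± 0.16 without the block and by 0.20 ± 0.07 with it (edgeR unadjusted p = 0.0257, adjusted p = 1.00). Adm, the secreted peptide adrenomedullin, held 336 UMIs in all and read 1.26 and 0.476 CPM in control, 1.47 and 0.764 in BCAS, 1.87 and 0.920 in TBI, and 0.380 and 2.77 in BCAS+TBI. Its TBI difference of 0.58 ± 0.61 turned to -0.35 without BCAS+TBI replicate 2, the library with the highest value.

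**Figure D2:**
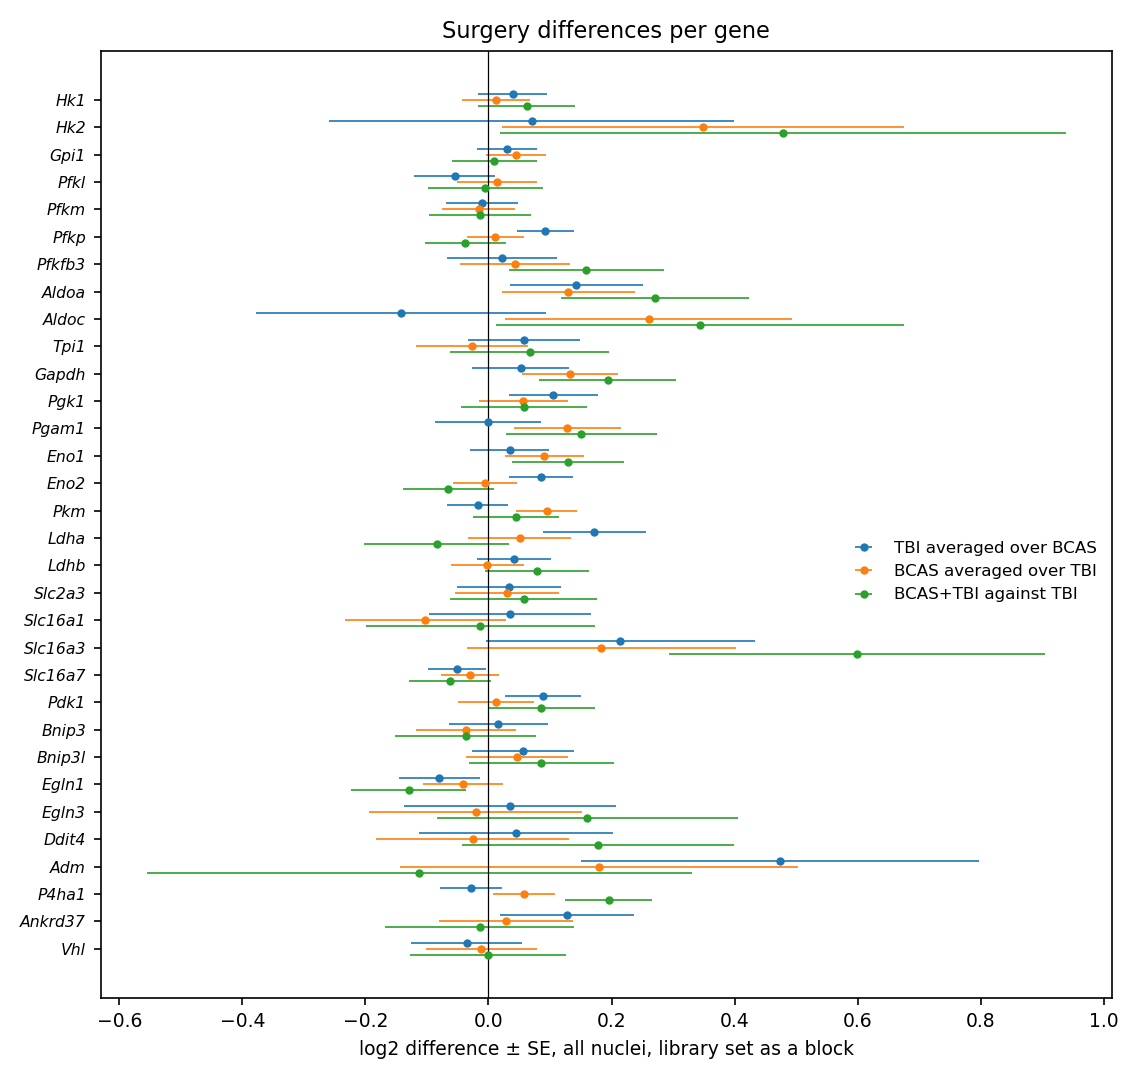
Log2 differences (horizontal axis, ± SE) for each of the 32 genes in all nuclei with the library set as a block, for TBI averaged over BCAS, BCAS averaged over TBI and BCAS+TBI against TBI. No difference passed the adjusted threshold, and Slc16a3 in BCAS+TBI against TBI (0.60 ± 0.31) lies furthest from 0.

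Nuclei were next assigned to cell classes by a marker gate that used no member gene. Of the kept nuclei, 27107 (55.9%) met a class's markers, among them 14482 excitatory neuron-like, 3276 astrocyte-like, 2800 oligodendrocyte-like, 1724 inhibitory neuron-like, 1132 endothelial-like, 1038 oligodendrocyte precursor-like, 783 striatal projection neuron-like, 783 microglia-like, 385 fibroblast-like and 305 mural-like. These 10 classes were tested. Choroid plexus-like and ependymal-like nuclei were too few in some libraries. All 10 microglial, all 8 endothelial and 8 of 10 astrocytic markers were highest in their own class, as were all oligodendrocyte, mural and fibroblast markers. The same held for 7 of 8 excitatory neuron, 6 of 7 inhibitory neuron, 7 of 8 striatal projection neuron and 5 of 6 oligodendrocyte precursor markers. In inhibitory neuron-like nuclei, Adarb2 alone made up 9734 of the 11349 CPM (counts per 1000000 UMIs) in that class's markers. No doublet caller was used, and 2636 gated nuclei led the next class by only 2 to 2.5 times.

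By class, 0 of 189 member-class pairs were called in any surgery contrast in edgeR's quasi-likelihood test, and neither was any of the 85479 pairs tested over all genes (0%). With 2 libraries per group this gives no call, and does not show that levels stayed the same. Between 1 and 5 of the 189 member pairs per contrast had an unadjusted edgeR p under 0.05, where 955 to 1387 of all 85479 pairs did. With the library set as a block, 0 member pairs were called, against 0.0105% of all pairs for BCAS averaged over TBI and 0.00117% for BCAS+TBI against TBI. Per contrast, 6 to 12 of the 189 member pairs then had an unadjusted edgeR p under 0.05, where 3563 to 4595 of all 85479 pairs did.

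The smallest p of a member belonged to Egln1, the main oxygen-sensing prolyl hydroxylase, in inhibitory neuron-like nuclei. It read 38.0 and 41.6 CPM in control, 27.3 and 35.5 in BCAS, 19.5 and 33.0 in TBI, and 23.1 and 17.3 in BCAS+TBI, on 11 to 77 UMIs per library. Both BCAS+TBI libraries were below both controls, and the difference was -0.92 ± 0.37 without the block and -0.92 ± 0.26 with it (edgeR unadjusted p = 0.0018, adjusted p = 0.857). In striatal projection neuron-like nuclei Egln1 read 21.2 and 10.1 CPM in BCAS+TBI and 35.5 and 47.5 in TBI, a difference of -1.34 ± 0.47 (edgeR adjusted p = 1.00) on 4 to 52 UMIs per library. Control libraries there read 39.8 and 22.5, and BCAS libraries 39.9 and 40.1.

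Bnip3l, a mitophagy receptor, read 68.1 and 57.1 CPM in control, 68.3 and 71.3 in BCAS, 102 and 87.3 in TBI, and 87.2 and 81.6 in BCAS+TBI in oligodendrocyte-like nuclei. All 4 libraries with TBI were above the 4 without it, by 0.45 ± 0.18 (edgeR unadjusted p = 0.0296, adjusted p = 1.00). In microglia-like nuclei Hk1, the housekeeping hexokinase, read 28.9 and 41.3 CPM in control, 78.9 and 60.2 in BCAS, 20.7 and 11.2 in TBI, and 52.9 and 43.1 in BCAS+TBI. All 4 BCAS-operated libraries were above the other 4, by 1.2 ± 0.49 (edgeR unadjusted p = 0.0287, adjusted p = 1.00), on 1 to 20 UMIs per library. Pfkp, the platelet-type phosphofructokinase, had an interaction of -2.09 ± 0.75 in the same class (edgeR adjusted p = 1.00), from 21.7 and 34.4 CPM in control, 63.2 and 81.2 in BCAS, 74.6 and 89.4 in TBI, and 59.6 and 39.2 in BCAS+TBI. None of these 3 passed the adjusted threshold. Each was picked from the 189 member pairs for the smallest unadjusted p of a contrast without the block. The share of all class-gene pairs that separate by surgery in this way was not counted, so these separations are descriptions only.

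Between the library sets, by contrast, most members differed. With the surgery group in the model, 21 of the 33 rows were called in edgeR's quasi-likelihood test, 6 higher and 15 lower in set 2. The background was 58.5% of all 24312 genes, 27.1% higher and 31.5% lower, so the members' share called was close to that of all genes. The median row was at -0.23, against -0.05 for all genes tested. In 23 rows the 4 libraries of one set lay wholly above the 4 of the other, 19 with set 1 above, and 56.3% of all genes did so.

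Among the glycolytic enzymes lower in set 2, Gapdh, which makes NADH at the first pay-off step, read 76.8, 76.6, 76.1 and 95.6 CPM in control 1, BCAS 1, TBI 1 and BCAS+TBI 2 (set 1) and 34.7, 37.9, 34.4 and 35.1 in control 2, BCAS 2, TBI 2 and BCAS+TBI 1 (set 2). The sets did not overlap, and the difference was -0.99 ± 0.08 (log2, SE; edgeR adjusted p = 9.59e-05). Pgam1, the phosphoglycerate mutase, read 33.8, 41.2, 34.4 and 42.0 CPM in set 1 and 16.3, 15.3, 15.5 and 15.4 in set 2, in the same order of libraries, a difference of -1.07 ± 0.09 (edgeR adjusted p = 9.86e-05). Aldoa, the main aldolase, read 67.4, 62.9, 64 and 93.5 CPM in set 1 and 31.3, 32.5, 32.7 and 31.6 in set 2. Tpi1, which interconverts the triose phosphates, read 45.9, 43.8, 42.4 and 52.3 CPM in set 1 and 23.8, 20.9, 24.3 and 21.3 in set 2. These fell by 0.95 ± 0.11 and 0.83 ± 0.09 from set 1 to set 2 (edgeR adjusted p = 0.000265 and 0.000222), and neither overlapped.

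Aldoc, the astrocytic aldolase, read 19.0, 27.3, 29.5 and 27.5 CPM in set 1 and 13.4, 12.5, 5.84 and 11.4 in set 2, -1.10 ± 0.24 (edgeR adjusted p = 0.00521). The lowest value, in TBI 2, went with the lowest share of astrocyte-like nuclei, 3.38% of kept nuclei, where the other 7 libraries had 6.56% to 10.5%. Within astrocyte-like nuclei alone the set difference was -0.96 ± 0.16 (edgeR adjusted p = 0.000206). Hk2 read 3.47, 2.80, 5.05 and 4.78 CPM in set 1 and 1.76, 2.60, 0.860 and 2.26 in set 2, -0.95 ± 0.33 (edgeR adjusted p = 0.0393). This call rests on few counts (825 UMIs in all): it was lost when any 1 library of control, TBI or BCAS+TBI was left out, with differences from -0.99 to -0.53 and edgeR adjusted p from 0.0608 to 0.121, and when counts were thinned to the lowest total (adjusted p = 0.0567). Without TBI replicate 1 or TBI replicate 2 it was -0.53. The summed microglial markers were also lower in set 2, at 255 to 288 CPM in set 1 and 85.8 to 170 in set 2. The share of microglia-like nuclei overlapped, at 1.56% of kept nuclei or more in set 1 and up to 1.93% in set 2. Within microglia-like nuclei Hk2 differed between the sets by -0.30 ± 0.23 (edgeR adjusted p = 0.336). Within excitatory neuron-like nuclei it differed by -0.96 ± 0.44 (edgeR adjusted p = 0.125). The part of microglial content in the Hk2 difference was not tested.

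Of the oxygen-response genes, Adm differed by -1.30 ± 0.33 (edgeR adjusted p = 0.0102), with 1.26 to 2.77 CPM in set 1 and 0.380 to 0.920 in set 2. Ddit4, an inhibitor of mTORC1 signalling, read 8.24, 6.59, 9.37 and 9.96 CPM in set 1 and 5.25, 4.66, 3.62 and 4.37 in set 2, -0.73 ± 0.16 (edgeR adjusted p = 0.00522). Ankrd37 was at -0.72 and Vhl at -0.33, and both were called. Ldha, Ldhb, Eno1, Pgk1 and Pdk1 were lower by smaller amounts, from -0.40 to -0.23.

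The 6 higher genes were Egln1, Pfkp, Pfkfb3, Slc16a7, Gpi1 and Hk1. Egln1 read 28.3, 29.9, 27.4 and 24.2 CPM in set 1 and 37.6, 37.6, 38.9 and 36.5 in set 2, 0.66 ± 0.07 (edgeR adjusted p = 0.000154), and did not overlap. Pfkp rose by 0.54 and Pfkfb3, the kinase that makes the allosteric activator of phosphofructokinase, by 0.50. The monocarboxylate transporter Slc16a7 rose by 0.45, Gpi1 by 0.36 and Hk1 by 0.28. The other 11 members (Slc2a3, Pfkl, Pfkm, Eno2, Pkm, Slc16a1, Slc16a3, Bnip3, Bnip3l, Egln3 and P4ha1) did not pass, with differences from -0.48 to 0.16. Members of 1 pathway stood on both sides: both aldolases were lower, while Gpi1 and Pfkp, which act before them, were higher.

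**Figure D3:**
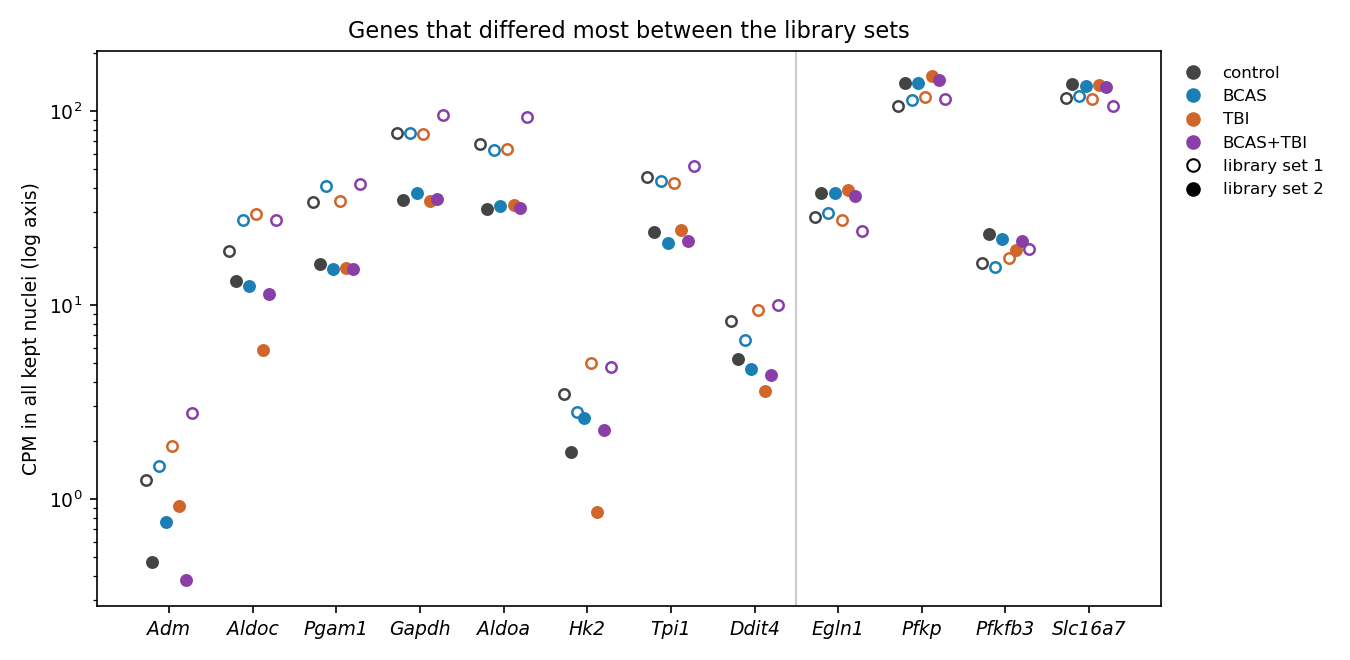
CPM (log axis) of 8 genes lower in set 2 (left of the line) and 4 genes higher in set 2 (right), 1 point per library, open for set 1 and filled for set 2, coloured by surgery. Gapdh separates at 76.1 to 95.6 CPM in set 1 against 34.4 to 37.9 in set 2.

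The members' differences ordered by the length of the gene. Spans were taken from GENCODE M21 on GRCm38 for all 32 genes and for 24288 of the 24312 genes tested. All 5 members under 5 kb (Ddit4, Adm, Tpi1, Gapdh, Aldoc) were lower in set 2, and 4 of the 5 between 5 and 10 kb (Aldoa, Pgam1, Vhl, Ankrd37), Eno2 being the exception at 0.11. Of 7 between 10 and 20 kb 4 were lower, of 9 between 20 and 50 kb 2 were higher and 2 lower, and of the 6 over 50 kb 4 were higher and none lower. Over all spans, 31.5% of all genes tested were called lower and 27.1% higher. The share called within each span bin was not counted, so how unusual these member counts are cannot be judged. Across the 32 members the Spearman correlation of span with the difference was 0.81, and across all genes 0.35. The points share the same 8 libraries, so this is a description and not a test. The median of all genes tested went from -0.53 under 5 kb to 0.42 over 100 kb, with wide spread within a bin (quartiles -1.09 and 0.42 under 5 kb).

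Beside other genes of their span, the members' medians were -0.99 against -0.53 under 5 kb, -0.72 against -0.43 at 5 to 10 kb, -0.32 against -0.22 at 10 to 20 kb, 0.07 against 0.04 at 20 to 50 kb, 0.30 against 0.24 at 50 to 100 kb, and 0.37 against 0.42 over 100 kb. Gapdh (chr6:125161715-125166467, minus strand) is 4.75 kb long with 13% intronic sequence, and Slc16a7 (chr10:125219270-125389465, minus strand) is 170 kb with 93%. Hk2, at 49.4 kb and -0.95, was below most other genes of its length, whose lower quartile was -0.31. Egln1, at 40.7 kb and 0.66, was above the upper quartile of 0.27. Some members overlap other annotated genes on the opposite strand (Gapdh with Iffo1, Tpi1 with Spsb2, Aldoa with Fam57b, Pfkp with Pitrm1), and the strand setting of the authors' counting is not given in the sources used here.

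**Figure D4:**
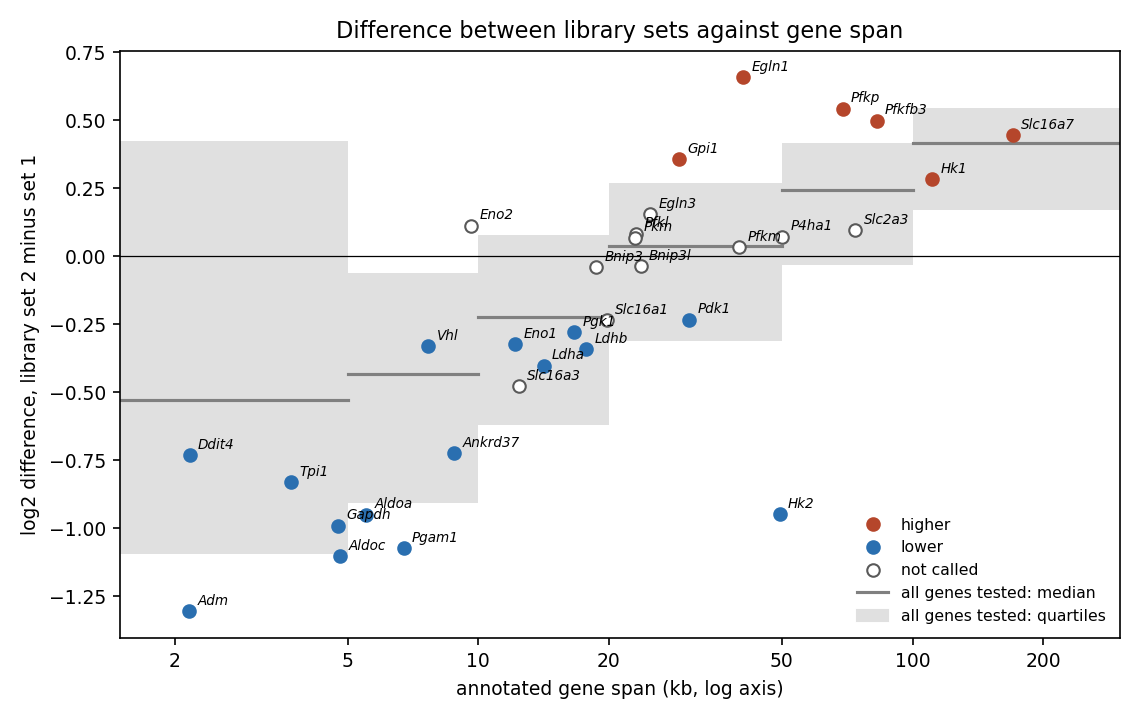
Log2 difference between set 2 and set 1 (vertical axis) against annotated gene span (kb, log axis) for the 32 genes, filled where called. Grey bars give the median and quartiles of all genes tested per span bin, rising from -0.53 under 5 kb to 0.42 over 100 kb, and Hk2 (49.4 kb, -0.95) lies furthest below its bin.

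The promoters of 3 lower genes are shown because these genes moved together while lying on different chromosomes. Sequences are RefSeq's for GRCm38.p6 and run from 250 bases before to 50 after a listed transcription start, 5′ to 3′ on the gene's strand. Capitals mark ACGTG or GCGTG on either strand (CACGT or CACGC when read on the printed strand), the core letters of the hypoxia response element. The regions are chr6:125165724-125166023 (minus strand), chr19:41911621-41911920 (plus) and chr11:78322823-78323122 (plus).
Gapdh: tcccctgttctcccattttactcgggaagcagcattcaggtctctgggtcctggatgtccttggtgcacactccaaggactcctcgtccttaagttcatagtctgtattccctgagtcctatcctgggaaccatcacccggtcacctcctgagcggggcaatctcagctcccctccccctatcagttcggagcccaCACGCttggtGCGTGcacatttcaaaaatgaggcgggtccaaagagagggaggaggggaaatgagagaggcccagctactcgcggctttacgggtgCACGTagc
Pgam1: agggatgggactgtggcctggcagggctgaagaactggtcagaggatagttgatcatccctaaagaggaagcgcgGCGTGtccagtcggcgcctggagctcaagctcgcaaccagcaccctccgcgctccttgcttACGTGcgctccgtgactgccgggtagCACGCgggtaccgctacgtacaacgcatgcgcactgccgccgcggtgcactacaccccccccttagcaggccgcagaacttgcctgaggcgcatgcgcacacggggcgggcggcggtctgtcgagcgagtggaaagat
Aldoc: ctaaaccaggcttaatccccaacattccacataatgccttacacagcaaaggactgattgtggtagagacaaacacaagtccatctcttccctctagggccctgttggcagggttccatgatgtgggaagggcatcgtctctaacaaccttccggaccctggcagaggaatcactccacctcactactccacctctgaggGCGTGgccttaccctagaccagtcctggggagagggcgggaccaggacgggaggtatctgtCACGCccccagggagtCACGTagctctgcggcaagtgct

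Each of the 3 windows holds 3 matches, and a second Aldoc window, not shown, holds 1. Tpi1 and Vhl, also lower in set 2, hold none. Over the members, 29 have a promoter in the table (42 windows), and 33 windows (78.6%) hold ACGTG or GCGTG, against 43.8% of all 32851 promoters. ACGTG alone was in 52.4% and 19.6%, and GCGTG alone in 57.1% and 32.4%. ACGTG can overlap CACGTG, the E-box letters, which 11.9% of member windows and 7.15% of all promoters hold. Many members were put on the list as targets of the hypoxia-inducible factors, so this share is not independent of how the genes were chosen. The promoters were not matched for base composition, and the reason for the higher share was not tested. A match is not a bound site. Pfkp and Egln1, both higher in set 2, hold a match as well.

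The set difference recurred within single cell classes. Of 189 pairs tested, 65 were called in edgeR's quasi-likelihood test, 15 higher and 50 lower, against 31.2% of all 85479 pairs (13.8% higher and 17.4% lower). Gapdh was lower in set 2 in 8 of 9 classes tested, from -1.59 in fibroblast-like to -0.91 in oligodendrocyte precursor-like nuclei, and was at -0.64 (edgeR adjusted p = 0.0576) in endothelial-like nuclei. Per class, 7 of 32 members were higher and 13 lower in excitatory neuron-like nuclei, where 53.2% of all genes were called. In inhibitory neuron-like nuclei 3 of 26 were higher and 6 lower (35% of all genes), in astrocyte-like nuclei 3 of 27 and 9 (30.3%), and in oligodendrocyte-like nuclei 2 of 27 and 6 (27.5%). Aldoa was lower in 8 of 9, Pgam1 in 6 of 8, Tpi1 in 6 of 7 and Aldoc in 5 of 5. Slc16a7 and Egln1 were each higher in 4 of 7, namely excitatory neuron-like, astrocyte-like, inhibitory neuron-like and oligodendrocyte-like nuclei. Nuclei of different classes in a library share its preparation, so the classes are not separate replicates. DESeq2's Wald test called 29 pairs. With nuclei held to 1% mitochondrial UMIs, 42 were called in fewer classes. Oligodendrocyte precursor-like, microglia-like, endothelial-like, mural-like and fibroblast-like nuclei then fell below 20 in a library and were not tested. The share of all pairs called was not counted under either setting, and the 42 cannot be set directly against 65 of 189. The lower pairs numbered 32 without BCAS+TBI replicate 1 and 31 without BCAS+TBI replicate 2.

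Between cell classes, the 32 genes differed in where they were highest. By mean CPM the highest class was endothelial-like for 11 of the 32, astrocyte-like for 6 and microglia-like for 5, and in only 3, 1 and 1 of these did it not overlap the next class. The share of all genes highest in each class was not counted, so these counts do not set the members apart from other genes. The test set each class against the mean of the other 9 with the library as a block, for the 27 members with enough counts. Of 270 pairs, 162 were called in edgeR's quasi-likelihood test, 77 higher and 85 lower, against 50.4% of all 112670 pairs (26.9% higher and 23.4% lower). With nuclei held to 1% mitochondrial UMIs, where fewer classes kept enough nuclei, 73 were called, and with the libraries of set 1 alone 105. Astrocyte-like nuclei had 16 members higher and 5 lower, against 31.3% and 23.7% of all genes (54.9% either way). Excitatory neuron-like nuclei had 11 higher and 8 lower, against 40.3% and 30.9% (71.2% either way), and striatal projection neuron-like nuclei 9 and 7, where 58.7% of all genes were called. Oligodendrocyte-like nuclei had 6 higher and 11 lower, against 24.9% and 20.3% (45.2% either way). Endothelial-like nuclei had 13 higher and 7 lower, against 30.2% and 28.2%. Oligodendrocyte precursor-like nuclei had 3 higher and 12 lower, against 24.1% and 18% of all genes, and inhibitory neuron-like nuclei 6 and 13, against 34.3% and 28.9%. Microglia-like nuclei had 6 and 7, against 21.4% and 14.3%.

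Slc2a3, the high-affinity neuronal glucose transporter, was higher in striatal projection neuron-like (1.80 ± 0.11), excitatory neuron-like (1.44 ± 0.07) inhibitory neuron-like (1.17 ± 0.10) and oligodendrocyte precursor-like nuclei (0.81 ± 0.14), and lower in endothelial-like nuclei (-1.66). In the order of mean CPM, striatal projection neuron-like nuclei (127 ± 16.3, SD, n = 8) came before excitatory neuron-like nuclei (102 ± 9.63), and their libraries overlapped. Hk2 had 236 UMIs in microglia-like nuclei and read there 188 and 145 CPM in control, 121 and 108 in BCAS, 203 and 123 in TBI, and 185 and 164 in BCAS+TBI. All 8 microglia-like values were above every value of the next class, fibroblast-like, at 0 to 60.6 CPM on 14 UMIs. Astrocyte-like nuclei followed at 6.08 ± 2.59 CPM (SD, n = 8). No Hk2 UMI was seen among 10898927 of inhibitory neuron-like and 1881044 of endothelial-like nuclei, which allows up to 0.275 and 1.59 CPM. The fitted differences were 6.99 ± 0.25 in microglia-like, 3.27 ± 0.60 in fibroblast-like, 2.18 ± 0.39 in astrocyte-like and 1.14 ± 0.42 in oligodendrocyte-like nuclei (edgeR adjusted p = 1.7e-39, 3.11e-06, 1.95e-06 and 0.0201), and their size depends on the prior count given to the classes at 0.

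Pfkm, the muscle-type phosphofructokinase, was at 78.7 ± 8.86 CPM (SD, n = 8) in astrocyte-like nuclei and 40.5 ± 3.55 in excitatory neuron-like nuclei, the next class, with no overlap of libraries. Aldoc read 198 and 169 CPM in control, 265 and 125 in BCAS, 321 and 114 in TBI, and 118 and 256 in BCAS+TBI in astrocyte-like nuclei, 3.73 ± 0.09 above the mean of the other classes (edgeR adjusted p = 2.12e-58). Its 4 libraries of set 1, at 198 to 321, were above the 4 of set 2, at 114 to 169. The lowest astrocyte-like library overlapped the highest mural-like one, at 124 CPM on 4 or fewer UMIs.

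Of the pay-off genes, Eno2, the neuronal enolase, was higher in striatal projection neuron-like (1.24 ± 0.11) and excitatory neuron-like nuclei (1.02 ± 0.07) and lower in endothelial-like nuclei (-1.33). Eno1, the ubiquitous enolase, was higher in astrocyte-like nuclei (1.27) and lower in fibroblast-like nuclei (-1.53). Gapdh, Tpi1, Aldoa, Pgam1 and Pkm were each higher in endothelial-like nuclei, by 0.84 to 1.37 (edgeR adjusted p from 1.93e-18 to 2.22e-05). Mural-like nuclei had higher means than endothelial-like nuclei for Gapdh (156 against 126 CPM) and Aldoa (172 against 153 CPM). They came next after endothelial-like nuclei for Tpi1, Pgam1 and Pkm, and the libraries of these 2 classes overlapped for each gene.

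Slc16a1, the monocarboxylate transporter of the blood-brain barrier, read 370 and 401 CPM in control, 505 and 494 in BCAS, 529 and 338 in TBI, and 401 and 433 in BCAS+TBI in endothelial-like nuclei. The 8 values, with a mean of 434 ± 68.8 (SD), were above every library of each other class tested, the highest being a mural-like library at 259 CPM on 18 UMIs. The fitted difference was 4.08 ± 0.12 (edgeR adjusted p = 2.57e-50). Astrocyte-like nuclei, where it was also higher (0.88), held 56.8 ± 18.4 CPM and striatal projection neuron-like nuclei 9.50, the lowest class. Its promoter is shown because its levels set endothelial-like nuclei apart, and it holds 5 matches, 2 of which overlap in CACGTG (chr3:104638414-104638713, plus strand, GRCm38.p6).
Slc16a1: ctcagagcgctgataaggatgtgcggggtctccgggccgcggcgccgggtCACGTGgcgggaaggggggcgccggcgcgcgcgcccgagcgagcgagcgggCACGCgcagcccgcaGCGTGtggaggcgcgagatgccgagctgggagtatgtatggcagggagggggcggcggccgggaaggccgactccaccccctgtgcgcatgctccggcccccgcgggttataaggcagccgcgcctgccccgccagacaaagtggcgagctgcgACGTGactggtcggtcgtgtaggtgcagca

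Slc16a7, the high-affinity transporter, was higher in 6 of the 10 classes, among them excitatory neuron-like (1.74) and microglia-like nuclei (1.16), and lower in endothelial-like (-2.06) and astrocyte-like nuclei (-1.87). Ldha read 92.5 and 43.9 CPM in control, 181 and 90.3 in BCAS, 136 and 104 in TBI, and 48.7 and 117 in BCAS+TBI in endothelial-like nuclei, 2.20 ± 0.16 above the mean of the others (edgeR adjusted p = 1.65e-22), and overlapped mural-like nuclei (72.5 ± 46.8, SD, n = 8). Ldhb, the subunit of cells that use lactate, was instead highest in astrocyte-like nuclei at 180 ± 25 CPM and lower in endothelial-like nuclei (-1.01). Pdk1 read 209 and 152 CPM in control, 161 and 173 in BCAS, 121 and 100 in TBI, and 144 and 216 in BCAS+TBI in fibroblast-like nuclei, 2.18 ± 0.18 above the others (edgeR adjusted p = 1.16e-19), and overlapped microglia-like nuclei (101 ± 35.9). Fibroblast-like nuclei held more astrocytic than fibroblast marker UMIs.

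Of the 9 oxygen-sensing and hypoxia genes, 5 were tested between classes, and in endothelial-like nuclei 3 were higher (Ddit4, Bnip3l and Egln1), P4ha1 was lower (-0.70, edgeR adjusted p = 1.07e-05) and Vhl was not called (-0.27). Ddit4 read 42.7 and 60.4 CPM in control, 30.2 and 51.2 in BCAS, 92.7 and 46.8 in TBI, and 37.5 and 68.0 in BCAS+TBI there, on 4 to 22 UMIs per library. All were above the highest oligodendrocyte-like library, the next class by mean, at 28.4, though single mural-like and fibroblast-like libraries reached 34.7 and 33.3 on 2 and 3 UMIs, and the fitted difference was 2.95 ± 0.22 (edgeR adjusted p = 3.5e-22). Bnip3l, at 155 ± 52.1 CPM (SD, n = 8), was also above every library of the next class, oligodendrocyte-like (77.8 ± 14.3). Egln1 was higher there by 0.95. Adm had its highest mean in oligodendrocyte precursor-like nuclei (14.3 ± 8.14 CPM, SD, n = 8), overlapping endothelial-like nuclei, and Egln3 in fibroblast-like nuclei (25.9 ± 15.6), with 0.418 CPM in endothelial-like nuclei. Bnip3 and Ankrd37, also not tested between classes, had their highest means in endothelial-like nuclei. These were 27.3 ± 11.1 and 43.1 ± 27.1 CPM (SD, n = 8). Both overlapped striatal projection neuron-like nuclei, the next class, at 16.5 ± 5.50 and 8.80 ± 3.73 CPM. Vhl was higher in microglia-like (0.99) and astrocyte-like nuclei (0.86).

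Endothelial-like nuclei also differed in RNA composition and depth. Ribosomal protein genes took 1.31% to 5.85% of their UMIs, against 0.129% to 0.550% in excitatory neuron-like and 0.195% to 0.712% in astrocyte-like nuclei, and mitochondrial genes took 2.39% to 3.20%. Their median depth was 1065 UMIs per nucleus, against 7059 in excitatory neuron-like nuclei. The part of these differences in the endothelial levels was not tested. Excitatory neuronal markers ran at 133 to 576 CPM in classes other than their own, against 1859 in their own. Astrocytic markers ran at 4478 CPM in mural-like, 4641 in oligodendrocyte precursor-like and 4881 in fibroblast-like nuclei. The own markers of these classes ran at 12442, 10430 and 4326 CPM. How far RNA of other classes entered the levels of a class was not tested.

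**Figure D5:**
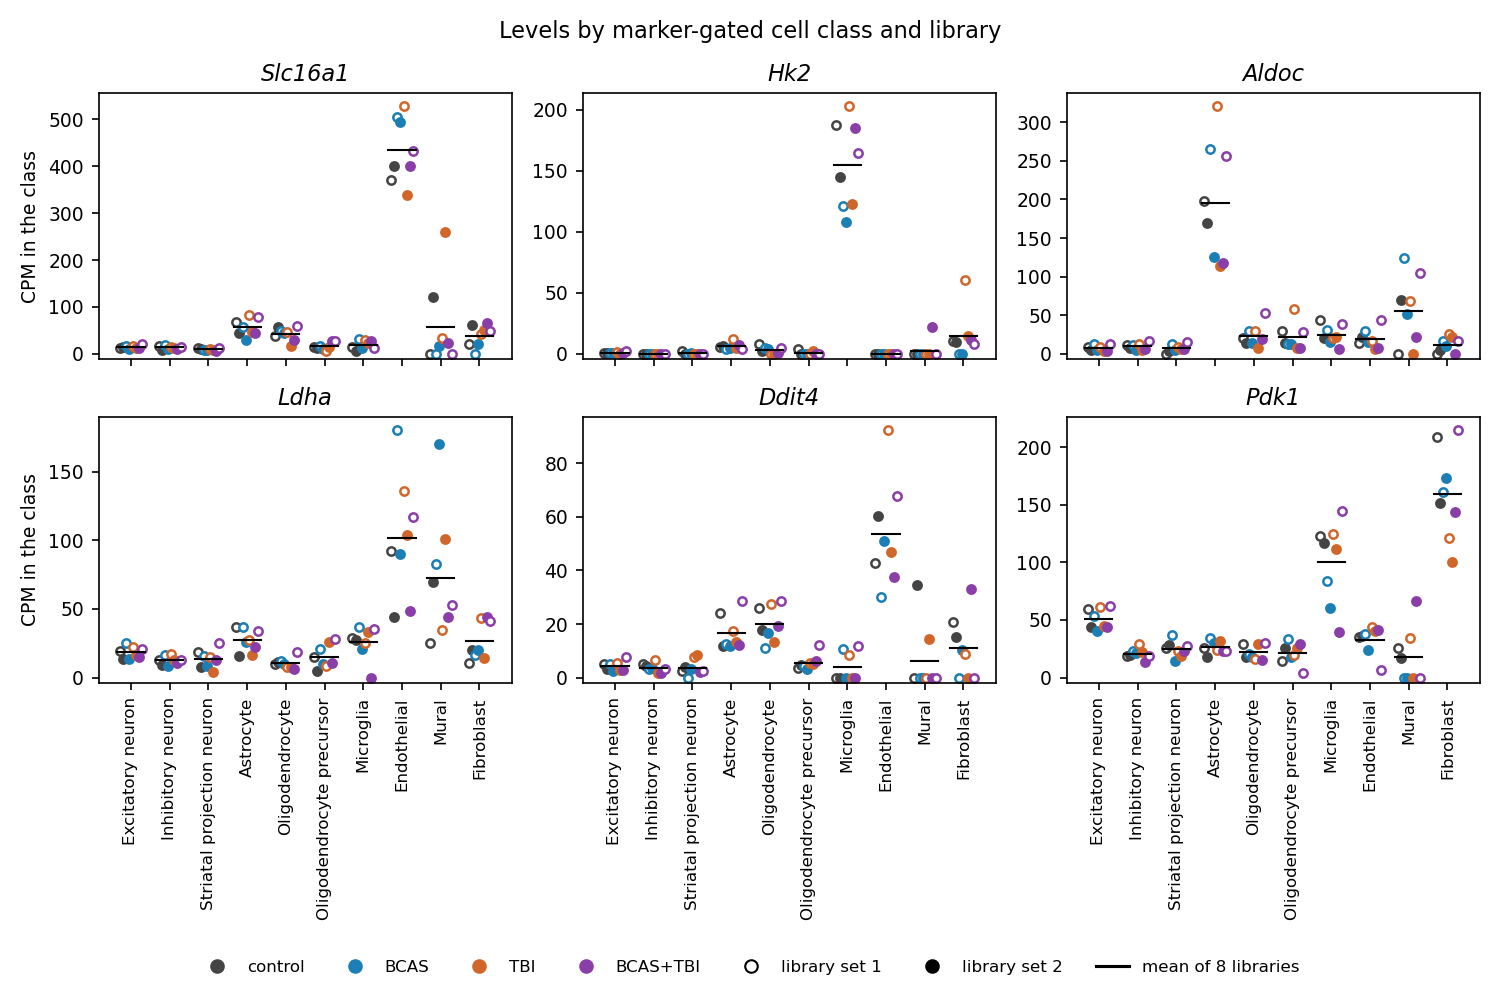
CPM (linear axes) of 6 genes in 10 marker-gated classes, named by their markers, with 1 point per library (open set 1, filled set 2, coloured by surgery) and a line at the mean of 8 libraries. Slc16a1 stands at 338 to 529 CPM in endothelial nuclei and Hk2 at 108 to 203 CPM in microglia, above every library of the next class. Both BCAS libraries are the lowest for Hk2 in microglia, and both TBI libraries the lowest for Pdk1 in fibroblasts. No member was called in a surgery contrast in any class, so these orders are descriptions only.

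Related genes outside the 32 were read the same way. Of 24 further glycolysis genes 21 were tested, of 13 genes of pyruvate entry to mitochondria 13, and of 24 other hypoxia genes 23, and none was called in any surgery contrast in all nuclei by edgeR's quasi-likelihood test. Their medians for TBI averaged over BCAS were -0.01, 0.02 and -0.02 and for BCAS averaged over TBI 0.02, 0.00 and 0.05. Between the library sets 5 of 21 further glycolysis genes were higher and 5 lower. Of the pyruvate genes 5 were higher and 4 lower, and of the other hypoxia genes 8 were higher and 3 lower, with a median of 0.13 where the 33 member rows had -0.23.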

How the data were processed

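Single-nucleus RNA-seq libraries (10x Chromium 3' chemistry, nuclei from flash-frozen tissue) were analysed from the authors' deposited UMI counts per gene and barcode. Per the file headers, Cell Ranger 7.0.0 produced these deposited counts. Seurat and the builds GRCm38 and mm10 are named per the submitters' processing notes. The intron and strand settings and the annotation release are not given in the sources used here. The 32 members and the gene and marker lists were chosen with earlier results of these data known.

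A barcode was kept as a nucleus from 500 UMIs and 300 detected genes upward, unless over 5% of its UMIs were mitochondrial. A nucleus was given a cell class when it held at least 3 distinct markers of it and its score, the share of UMIs in those markers relative to that of the class, was at least 2 times the next. Doublets were not called. Counts were summed per library, or per library and class where every library had at least 20 nuclei.

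Sums were tested with edgeR 4.0.16 (TMM, genes filtered at a minimum count of 10, quasi-likelihood test, R 4.3.3), with Benjamini-Hochberg adjustment over all genes, or jointly over all class-gene pairs, at 0.05. Surgery contrasts were fitted on group alone and with the library set as a block, library sets with group in the model, and classes with library as a block. The sets were defined from total UMIs, which is a property of the libraries and not a label. The fit was tested on simulated counts with a dispersion of 0.02. Its surgery runs held no difference between library sets beyond depth, so they do not measure power in the surgery contrasts reported. Alternatives were DESeq2 1.42.0, RLE size factors, other count filters, thinning, stricter and looser gates, a mitochondrial limit of 1%, and leaving out each library. The libraries of each set alone were added after seeing the data. Standard errors of log2 differences come from the edgeR fit and include the spread between libraries. Floors cover counting error only, and a count of 0 allows up to 3 counts.

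Any member could be named. Values in every library were given for the members with the smallest p of a surgery contrast (up to 3) and the largest differences between sets or classes (up to 8 each). Replicate numbers were checked for pairing by correlating deviations from group means: control, BCAS and TBI correlated at 0.587 to 0.690 with each other and at -0.755 to -0.688 with BCAS+TBI, so the numbers do not pair all groups.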

Additional observations from a re-analysis of the deposited data

Results flagged for a closer look

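In 66 groups of 4 libraries (each member row in each set), 5 had a library whose gap to the nearest other was above Dixon's critical value as a share of the range. Chance gives about 1 in 20 groups. In set 1, BCAS+TBI 2 was highest for Gapdh (95.6 CPM, next 76.8), Aldoa (93.5, next 67.4) and Pdk1 (51.6, next 46.6). That library also had the highest mitochondrial share (1.38%, next 1.04%), ribosomal share (0.661%, next 0.601%), failed barcodes (1394, next 867) and red cell marker level (886 CPM) of the 8, and their part in these values was not tested. In set 2, BCAS 2 was lowest for Hk1 (59.4 CPM, next 64.2) and control 2 highest for Pgam1 (16.3, next 15.5).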

How the results depend on the processing

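The replicate block, like the library set block, gave 0 members called for surgery in all nuclei and 0 by class, and so did each other alternative run. The replicate numbers do not pair all groups, so this block is not a paired test. Between sets in all nuclei the calls stayed between 17 and 21 of 33 when 1 library was left out.

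Between sets by class, 65 pairs were called (15 higher, 50 lower). DESeq2 called 29 (7 higher, 22 lower), and the 1% mitochondrial limit 42 (29 lower), with fewer classes. Leaving out 1 library gave 44 to 60 pairs, 31 to 48 of them lower. Between classes, 162 pairs were called (77 higher, 85 lower). The 1% mitochondrial limit gave 73 (35 higher, 38 lower), with fewer classes, thinning to the lowest total gave 51 lower, and the libraries of set 1 alone, with fewer samples, gave 105 (38 lower). The cause was not tested where no construction is named. No result reversed its direction past the threshold. Adm changed sign without BCAS+TBI replicate 2, to -1.02 for BCAS+TBI against control and -0.35 for TBI. Depth limits Adm, Hk2 and Slc16a3 in all nuclei, and most members in mural-like and fibroblast-like nuclei.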
